A study of Mus musculus with 4 samples.

Results

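Basement membranes are thin sheets of extracellular matrix that surround every muscle fibre. Laminins, which are trimers of an alpha, a beta and a gamma chain, polymerise on the cell surface by binding integrins and dystroglycan. Type IV collagen forms a second network, and nidogens and the heparan sulphate proteoglycan perlecan tie the networks together. In skeletal muscle the laminin that holds the alpha-2 chain is the main isoform of the fibre's basement membrane, and loss of that chain causes a congenital muscular dystrophy.

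The transcripts described here are those of 10 basement membrane genes: the laminin chains Lama2, Lama4, Lama5 and Lamc1, perlecan (Hspg2), the nidogens Nid1 and Nid2, the collagen IV chains Col4a1 and Col4a2, and Col15a1. Every non-control probe that the scanner files assign to these symbols was taken, which gave 18 of 41174 probes and 27 of 43379 spots. Of the 10 genes, 9 could be tested among 17863 features, and Col15a1 was below background. Each of the 4 samples was a 2-colour hybridisation of a mouse whole-genome array, and the labels call them biological replicates. C2C12 is an established mouse myoblast line whose cells fuse into myotubes when serum is reduced, and the labels name no other cell type in the cultures.

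Both conditions were C2C12 cells grown in 10% foetal bovine serum to 80% confluence and then kept for 6 days in differentiation medium with horse serum. The treated cells received recombinant human follistatin at 200 ng/ml every 24 h, and the control cells were untreated. Follistatin is a secreted protein that sequesters ligands of the TGF-beta family, activins and myostatin among them. The labels disagree on the horse serum, which is 2% by the growth protocol but 10% by the sample source. On every array follistatin RNA carried Cy3 and untreated RNA carried Cy5, so a dye effect of a given probe adds to its ratio on all 4 arrays and cannot be told apart from an effect of follistatin.

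Between 61.1% and 65.2% of non-control spots were well above background with follistatin, and between 61.4% and 69.4% in the untreated channel. Replicates 1 to 3 lay on slide 1 and replicate 4 on slide 2. The ratios of replicates 2 and 3 were alike across the 17863 features (r = 0.84, rho = 0.80), whereas r lay between 0.017 and 0.23 for the other 5 pairs of arrays. Genes are not independent replicates, so these correlations are descriptions. With limma, whose p-values were adjusted over all features, a threshold of 0.05 called 0 features (0% higher, 0% lower), and the smallest adjusted p was 0.0900. At an unadjusted p under 0.05 it called 1509 features higher with follistatin (8.45%) and 1969 lower (11.0%).

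The probes are 60 bases long, and their sequences decide which piece of each transcript was read. Those of Lama2 are shown first because Lama2 had the highest ratio of the set, and the file places them in mm9 on the minus strand of chromosome 10. The first was printed at 10 spots and lies at chr10:26704229-26704288. The second lies at chr10:26710714-26712724, so its 60 bases span 2011 bases of genome and cross an intron.
Lama2 A_51_P191865: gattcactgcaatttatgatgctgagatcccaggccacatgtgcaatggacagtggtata
Lama2 A_52_P652859: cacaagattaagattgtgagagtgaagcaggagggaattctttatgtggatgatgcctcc

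A pair of Lama4 probes is shown because they are not separate readings. On the plus strand of chromosome 10, A_51_P212420 (chr10:38825794-38825853) and A_52_P7554 (chr10:38825032-38825822) share 29 bases, in capitals below.
Lama4 A_51_P212420: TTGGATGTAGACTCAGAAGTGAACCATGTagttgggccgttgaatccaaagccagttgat
Lama4 A_52_P7554: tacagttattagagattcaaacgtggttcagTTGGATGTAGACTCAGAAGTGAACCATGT

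For the collagen IV genes a second probe read a separate stretch of each transcript, and both are shown because replicate 1 was the highest array on them. A_52_P518827 of Col4a1 lies on the minus strand at chr8:11199846-11201680 and crosses an intron. A_52_P496142 of Col4a2 lies on the plus strand at chr8:11448180-11448239.
Col4a1 A_52_P518827: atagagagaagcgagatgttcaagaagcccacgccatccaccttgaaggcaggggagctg
Col4a2 A_52_P496142: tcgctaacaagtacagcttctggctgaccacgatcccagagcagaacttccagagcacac

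The 9 tested genes all had a mean log2 ratio of follistatin over untreated above 0, while 46.5% of all features did. The members were chosen with earlier results of these data known, so the counts over the 9 genes are descriptions. The median over the 9 genes was 0.58, against -0.018 over all features, whose middle 50% ran from -0.18 to 0.16. None of the 9 passed the adjusted threshold. With arrays weighted by weights estimated from the data, which favour the similar replicates 2 and 3, 5 of the 9 passed (Lama2, Lama4, Lamc1, Hspg2 and Col4a1), as did 1792 of all features. At an unadjusted p under 0.05 in the unweighted fit, 6 of 9 were higher (the same 5 and Lama5), against 8.45% of all features, and 6 of 9 were above 0 on all 4 arrays, against 12.2%. None was below 0 on all 4 arrays, against 15.8%. A mean of at least 1.6-fold was seen for 3 of 9 (Lama2, Lamc1 and Hspg2), against 1.23% of features. For Lama2, Lamc1, Hspg2 and Col4a1 all 4 follistatin signals lay above all 4 untreated signals, a pattern that 6.43% of features had. The opposite pattern was held by 7.42% of features and by 0 of the 9. The 9 probes that stand for these genes stood well above background on each array in each channel, so the filter on dim probes did not act through the brighter channel. Because the array reads RNA from a whole culture, a change in the number of cells of a type and a change in RNA per cell cannot be told apart.

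**Figure D1:**
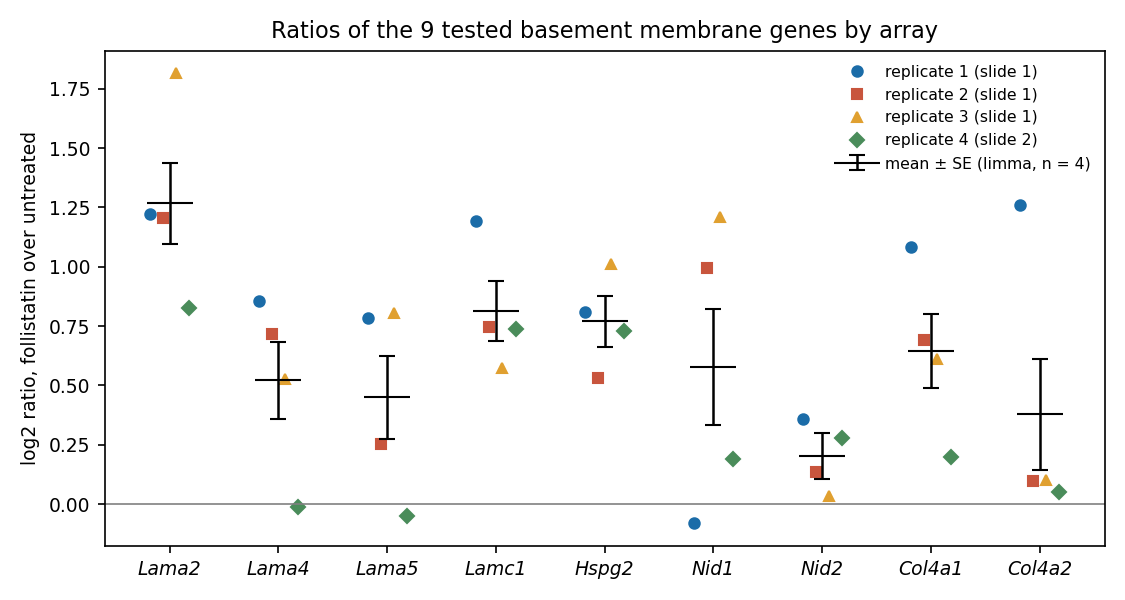
Log2 ratio of follistatin over untreated (y axis) for the 9 tested genes (x axis) on each of the 4 arrays, with the limma mean and SE as a black cross (n = 4). Lama2, Lamc1 and Hspg2 are at or above 0.53 on every array, replicate 1 is alone at the top for Col4a2 (1.26), and replicate 4 is lowest for Lama2, Lama4, Lama5, Col4a1 and Col4a2.

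The size of the shift differed between arrays. The median over the 9 genes was 0.86 in replicate 1, 0.69 in replicate 2, 0.61 in replicate 3 and 0.20 in replicate 4, while the median of all features stayed between -0.038 and -0.0013. Replicate 1 had 8 of 9 genes above 0, replicates 2 and 3 had 9 each, and replicate 4 had 7. The array on the other slide therefore had the smallest median. That array was also the only one read with another version of the scanner software. Slide, software version and replicate cannot be told apart for it. Lama2 was the highest gene in replicates 2, 3 and 4, and Col4a2 in replicate 1.

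Among the laminin alpha chains, Lama2, which encodes the chain of muscle laminin that binds dystroglycan, had the highest ratio of the 9 genes. The processed signal of its probe A_51_P191865 was 6401, 7601, 12747 and 6763 with follistatin in replicates 1 to 4, and 2712, 3040, 3374 and 3733 in untreated cells. The groups did not overlap, and the follistatin signal of replicate 3 stood above the other three. The log2 ratios were 1.22, 1.21, 1.82 and 0.83, with a mean of 1.27 (SE 0.17, n = 4), or 2.41-fold. That mean was the 3rd highest ratio among 17863 features and ranked 92nd by p (limma adjusted p = 0.0923). Over the 10 repeated spots of this probe the SD was 0.065, 0.044, 0.11 and 0.023 in the 4 arrays, against an SD of 0.41 between arrays, so repeated spots of an array differed less than arrays did.

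Lama4 encodes an alpha chain that is typical of vessel, nerve and embryonic muscle basement membranes. Its brightest probe gave 749, 871, 860 and 619 with follistatin against 362, 463, 515 and 622 untreated. In replicates 1 to 3 the treated channel was brighter, and in replicate 4 the channels were nearly equal, so the groups overlapped. The log2 ratios of 0.86, 0.72, 0.53 and -0.013 averaged 0.52 (SE 0.16, limma adjusted p = 0.181).

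Lama5, the alpha chain found in most adult epithelial and vascular basement membranes, was read by 1 probe. The signals were 26708, 20889, 30647 and 16265 with follistatin and 14837, 16575, 16669 and 16989 untreated. As with Lama4, replicate 4 was the array without a higher treated channel, and the groups overlapped. Ratios of 0.79, 0.25, 0.81 and -0.049 averaged 0.45 (SE 0.17, limma adjusted p = 0.248). The file aligns only 15 bases of this probe to mm9 (chr2:179911062-179911076), so its position is less certain than those of the other probes.

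Lamc1 encodes the gamma chain shared by most laminins, those with the alpha-2, alpha-4 and alpha-5 chains included. Its signals were 16110, 21308, 19082 and 18097 with follistatin against 6924, 12184, 11844 and 10739 untreated. The treated signals all exceeded the untreated ones, and replicate 1 had the lowest signal of each channel. The ratios of 1.19, 0.75, 0.57 and 0.74 averaged 0.81 (SE 0.13, limma adjusted p = 0.0970).

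Hspg2 encodes the core protein of perlecan, which binds laminin, nidogen and growth factors. It gave 57429, 61746, 83426 and 59027 with follistatin and 33071, 42750, 39973 and 34949 untreated, without overlap. The ratios of 0.81, 0.53, 1.01 and 0.73 averaged 0.77 (SE 0.11, limma adjusted p = 0.0937). Its SD between arrays, 0.20, was the second smallest of the 9 genes, after that of Nid2 (0.14).

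**Figure D2:**
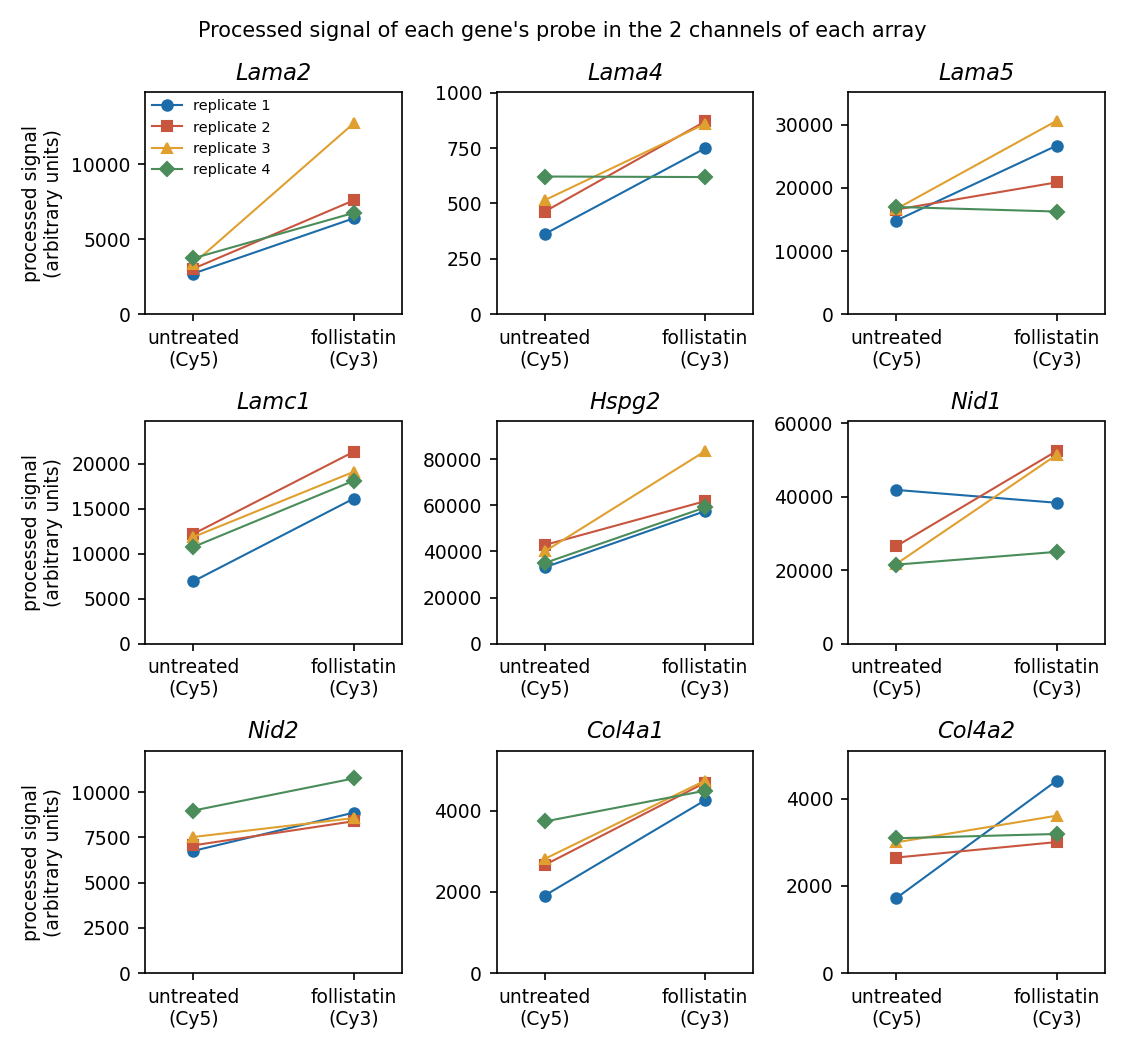
Processed signal in arbitrary units (y axis, a separate linear scale from 0 in each panel) in the untreated Cy5 channel and the follistatin Cy3 channel (x axis) for the 9 tested genes, with a line for each array. Lines climb on all 4 arrays for Lama2, Lamc1, Hspg2, Nid2, Col4a1 and Col4a2, fall in replicate 4 for Lama4 and Lama5, and fall in replicate 1 for Nid1.

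Nidogens bridge the laminin and collagen IV networks, and the pair differed in how their arrays spread. Nid1 gave 38339, 52429, 51374 and 24981 with follistatin and 41836, 26520, 21683 and 21505 untreated. In replicate 1 the untreated channel was the brighter of the pair and the highest untreated value of the 4, and the groups overlapped. The ratios of -0.081, 0.99, 1.21 and 0.19 averaged 0.58 (SE 0.24, limma adjusted p = 0.276). The 2 high arrays were replicates 2 and 3, and without replicate 3 the mean was 0.37.

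Nid2 gave 8864, 8391, 8563 and 10754 with follistatin against 6750, 7056, 7520 and 8978 untreated. Each array had the brighter signal in the treated channel, but replicate 4 was bright in both channels and its untreated value lay above 3 of the treated ones. The ratios of 0.36, 0.14, 0.033 and 0.28 averaged 0.20 (SE 0.096, limma adjusted p = 0.314), the smallest mean of the 9 genes.

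Col4a1 and Col4a2 encode the chains of the most widespread collagen IV trimer and are transcribed in opposite directions from neighbouring starts. Col4a1 gave 4255, 4688, 4739 and 4490 with follistatin against 1910, 2663, 2812 and 3732 untreated. The treated signals were close to each other and above every untreated value, and the untreated signals were spread from a low replicate 1 to a high replicate 4. The ratios of 1.08, 0.69, 0.61 and 0.20 averaged 0.65 (SE 0.16, limma adjusted p = 0.134).

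Col4a2 gave 4414, 3007, 3611 and 3192 with follistatin against 1720, 2651, 3000 and 3094 untreated. Replicate 1 held both the highest treated and the lowest untreated signal, and the remaining values overlapped. The ratios of 1.26, 0.097, 0.10 and 0.052 averaged 0.38 (SE 0.23, limma adjusted p = 0.417). Without replicate 1 the mean was 0.083, so the Col4a2 mean rested on that array.

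Col15a1 encodes a collagen of the outer side of muscle and vessel basement membranes. Its probe A_51_P159792 (chr4:47325103-47325162, plus strand) gave 14.1, 6.26, 22.1 and 7.47 with follistatin and 6.48, 16.7, 20.6 and 6.41 untreated. Both of its probes were not well above background on any array in either channel, so no ratio is given. The sequence of the first is shown to identify what was read as below background.
Col15a1 A_51_P159792: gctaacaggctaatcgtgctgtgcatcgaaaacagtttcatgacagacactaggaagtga

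Of the 18 probes, 14 passed the detection filter, and all 14 had a mean ratio above 0. When every probe was tested as a feature of its own, 8 of the 14 were above 0 on all 4 arrays (12.8% of 27017 probes were), 9 were higher at an unadjusted p under 0.05 (8.57%), and 0 passed after adjustment (0%, smallest adjusted p among the 14 = 0.0995). The 4 probes that did not pass were the 2 of Col15a1, A_52_P459341 of Lama2 and A_52_P78714 of Lama4.

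The second Lama2 probe gave ratios of 1.44, 1.45, 2.10 and 0.49 (mean 1.37, limma adjusted p = 0.109). It shared no run of more than 7 bases with the first, and both put replicate 3 highest and replicate 4 lowest. The other Lama4 probes averaged 0.48 (A_51_P212427, ratios 0.68, 0.60, 0.68 and -0.036) and 0.31 (A_52_P7554, ratios 0.47, 0.56, 0.43 and -0.20). On all 3 Lama4 probes replicate 4 was the low array and the sole one below 0.

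The second Col4a1 probe gave 1.85, 0.49, 0.69 and 0.52 (mean 0.89), and the second Col4a2 probe gave 1.57, 0.13, 0.34 and -0.31 (mean 0.43). Replicate 1 was the highest array on all 4 collagen IV probes, and replicate 4 was lowest on 3 of them, replicate 2 on the second Col4a1 probe. The signals of the second Col4a1 probe did not overlap between channels, and those of the second Col4a2 probe did.

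**Figure D3:**
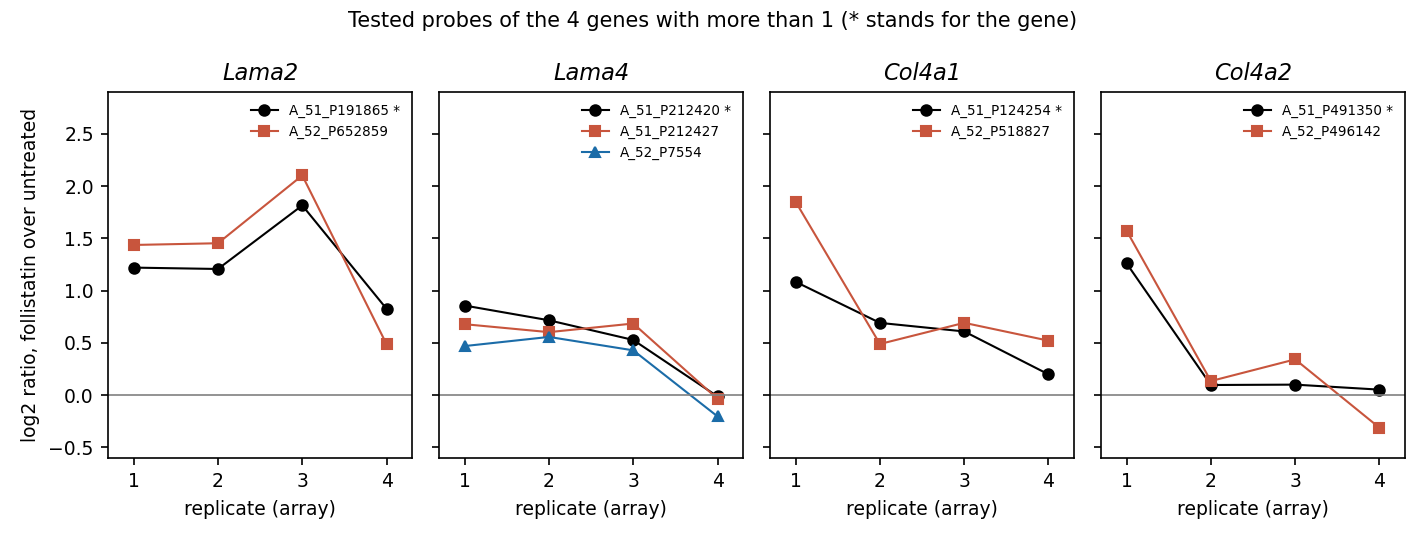
Log2 ratio of follistatin over untreated (y axis) in each replicate (x axis) for every tested probe of the 4 genes with more than 1, where lines only join the points of a probe. Both Lama2 probes peak in replicate 3 (1.82 and 2.10), the 3 Lama4 probes fall below 0 in replicate 4, and the collagen IV probes are highest in replicate 1 (1.08 to 1.85).

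Differences between genes that share a complex or a network were taken within each array for 7 pairs and tested by exact sign-flip permutation, 2-sided, where 4 arrays allow no p below 0.125. The Lama2 ratio was above that of the other alpha chains on 4 of 4 arrays, by 0.74 ± 0.41 over Lama4 and by 0.82 ± 0.26 over Lama5 (SD, n = 4, exact p = 0.125 each, adjusted p = 0.219). It was also above Lamc1 on 4 of 4 arrays, by 0.45 ± 0.56, and above Hspg2 by 0.50 ± 0.31, with the same exact p. The brightest probe stood for each gene, and the offset used in background correction compresses ratios of faint probes. With the processed signals a dimmer Lama4 probe, A_51_P212427, averaged 1.01. That probe exceeded the Lama2 probe A_51_P191865 in replicate 1 (1.40 against 1.24) and lay below it in replicates 2 to 4. The Lamc1 difference ranged from 0.030 in the closest array to 1.24 in the widest, so its spread exceeded its mean, and without replicate 3 it was 0.19.

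Lama4 and Lama5 differed by 0.073 ± 0.30 (exact permutation p = 0.625, adjusted p = 0.625), with the sign changing between arrays. Nid1 exceeded Nid2 by 0.38 ± 0.76 on average but on only 2 of 4 arrays (exact permutation p = 0.50, adjusted p = 0.583). Without replicate 3 that difference was 0.11, and without replicate 1 it was 0.65. Col4a1 exceeded Col4a2 by 0.27 ± 0.35 on 3 of 4 arrays (exact permutation p = 0.375, adjusted p = 0.525), and single arrays ran from -0.18 to 0.59. It was 0.16 without replicate 2 and 0.42 without replicate 1. In these 3 pairs the difference was smaller than its spread over arrays.

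RefSeq promoter windows of 300 bases around the annotated start (GRCm38.p6) matched 7 of the 10 genes, all but Lama4, Lamc1 and Nid2. Those of Col4a1 (minus strand, chr8:11312777-11313076) and Col4a2 (plus strand, chr8:11312555-11312854) overlapped by 78 bases, 73.1% of them G or C. The annotated starts, 11312826 and 11312805, lie at the ends of the 22 bases below, and both genes are annotated as transcribed through them. The stretch is given on the strand of Col4a1 because both genes of the pair are members. Capitals mark a GC box, the motif read by Sp1-type factors, which is GGGCGG on the other strand.
Col4a1-Col4a2, chr8:11312805-11312826: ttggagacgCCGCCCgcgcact

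On either strand, GGGCGG was found in 6 of the 7 windows (Lama2, Lama5, Hspg2, Nid1, Col4a1 and Col4a2), against 35.7% of 32851 windows. The sole match of Col4a1 lies in the stretch shared with Col4a2, so it counts for both genes. CCAAT was found in 3 (Nid1, Col4a1 and Col4a2), against 37.4%. CAGAC, the core read by Smad3, was in 4 of 7 (49.6% of all windows), the E-box CANNTG read by myogenic factors in 3 of 7 (72.3%), and TATAAA in 0 of 7 (13.6%). The 5 motifs do not contain one another, and a match describes letters in a window, not a bound site.

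The rest of the basement membrane was read from a list of 28 further components, of which 23 were tested. Of these, 13 had a mean ratio above 0, against 46.5% of all features. At an unadjusted p under 0.05, 9 were higher and 0 lower, against 8.45% and 11.0% of all features. On all 4 arrays 6 were above 0 and 0 below, against 12.2% and 15.8%, and 0 passed the adjusted threshold. Their median was 0.045, against -0.018 over all features, and with 1 array left out it lay between 0.0047 (without replicate 1) and 0.20 (without replicate 3). Col4a3, Colq, Frem1, Lama1 and Smoc1 did not pass the detection filter.

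Among those of smallest p were the laminin chains Lamb3 and Lamb1 and Sparc, a matrix protein that binds collagen IV. Lamb3, the beta chain of the epidermal laminin, gave 1.02, 0.66, 0.64 and 0.24 (mean 0.64, limma adjusted p = 0.121). Lamb1, the beta chain that pairs with Lamc1 in most early laminins, gave 0.57, 0.41, 0.46 and 0.21 (mean 0.41, adjusted p = 0.130). All 4 arrays were above 0 for both chains, with replicate 4 lowest. Sparc averaged 0.27 and was above 0 on 4 of 4 arrays. With the processed signals Lamb3 was at 1.09 and Sparc at 0.43. When arrays were centred on their median and loess was left out, Sparc was at 0.13 and no longer past an unadjusted p of 0.05. Lamb2, the beta chain of the adult muscle and synaptic laminins, gave 1.01, -0.33, -0.14 and -0.65 (mean -0.024), and was chosen after its values were seen. Its difference from Lamb1 was not tested.

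Of 18 receptors of laminin, collagen IV and perlecan, 17 were tested, and 12 had a mean above 0, against 46.5% of all features. At an unadjusted p under 0.05, 5 were higher and 2 lower, where 8.45% and 11.0% of all features were. On all 4 arrays 5 were above 0 and 2 below, where 12.2% and 15.8% of all features were. After adjustment 0 passed, and the median was 0.25. By array the median was 0.78 in replicate 1, -0.053 in replicate 2, 0.0018 in replicate 3 and 0.23 in replicate 4, and over the arrays it was 0.11 without replicate 1 and 0.37 without replicate 2. The syndecan Sdc2, a cell surface heparan sulphate proteoglycan, averaged 0.66 (limma adjusted p = 0.0970), but a dimmer Sdc2 probe averaged 0.031. Itga6, an alpha subunit of laminin-binding integrins, averaged 0.60, with its 3 probes between -0.45 and 0.60. The collagen receptors Ddr1 and Itga1 averaged -0.42 and -0.61, below 0 on 4 of 4 arrays. Ddr2, also a collagen receptor, differed on its brightest probe, at 1.77, 1.35, 1.45 and -0.11 in replicates 1 to 4. The other Ddr2 probe averaged -0.58. With the processed signals Itga1 was at -1.09, and the methods' t-test on separate channels gave it an adjusted p of 0.560. Dag1, the dystroglycan that binds the alpha-2 chain, averaged 0.25 (adjusted p = 0.413). Itga7, the muscle laminin integrin, was at 1.90 in replicate 1 and between -0.34 and 0.011 in the others. Ddr2, Dag1 and Itga7 were chosen after their values were seen.

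Of 22 genes that assemble or process collagen IV and laminin or glycosylate dystroglycan, 21 were tested. A mean above 0 was seen for 14 of them, against 46.5% of all features. The 4 higher and 2 lower at an unadjusted p under 0.05 stand against 8.45% and 11.0% of all features. The 5 above 0 and 2 below 0 on all 4 arrays stand against 12.2% and 15.8%, and 0 passed after adjustment. The median was 0.25, and without replicate 1 it was -0.020. Mia2, which acts in export of large cargo from the endoplasmic reticulum, averaged -1.29 on its brightest probe, while its 3 probes ran up to 0.39. Pxdn, the peroxidase that cross-links collagen IV, averaged 0.40 and was above 0 on 4 of 4 arrays.

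Markers of cell types were read on the same arrays, and 0 of any list passed the adjusted threshold. All 12 differentiated myotube markers were above background. Of these, 10 had a mean ratio below 0 and 2 above (Tnnt3 at 0.23 and Des at 0.11), where 46.5% of all features were above 0. On all 4 arrays 4 of the 12 were below 0, against 15.8% of all features. The median of the 12 was -0.41 (0.37, -0.55, -0.90 and -0.62 in replicates 1 to 4). Tnnc2, a fast troponin, averaged -1.07, Ttn (titin) -0.97, Myh8, a perinatal myosin, -0.55 and Myog, the myogenic factor, -0.39. The 9 Ttn probes ran from -1.66 to 0.71 and the 3 Myh8 probes from -0.55 to 0.15, and with all probes of a gene averaged Myh8 was at -0.13. The summed processed signal of the list was 1210010 to 1840490 with follistatin and 1927380 to 2414690 untreated, without overlap. The member medians in replicates 1 to 4 were 0.86, 0.69, 0.61 and 0.20. The part of these markers in the basement membrane ratios was not tested.

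Of 8 fibroblast and mesenchymal markers 6 were above background, Tcf21 and Thy1 were not, and the sums overlapped at 104812 to 180754 with follistatin and 93607 to 130596 untreated. Of 7 endothelial markers Vwf and Tek were above background, and Cdh5, Emcn, Kdr, Pecam1 and Tie1 were not. The sums were 227 to 328 and 204 to 281. Of 5 adipocyte markers Adipoq, Fabp4, Lep and Plin1 were not. Myoblast markers were above background in 5 of 5, with sums of 132693 to 157926 and 97289 to 160014. Smooth muscle and pericyte markers were in 4 of 5, all but Rgs5, at 334551 to 438651 and 357667 to 434455. Schwann and neural markers were faint in 5 of 5, at 428 to 654 and 474 to 625. Of the 3 blood markers on the array 2 were above background, Ptprc was not, and the sums were 201 to 330 and 166 to 234.

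**Figure D4:**
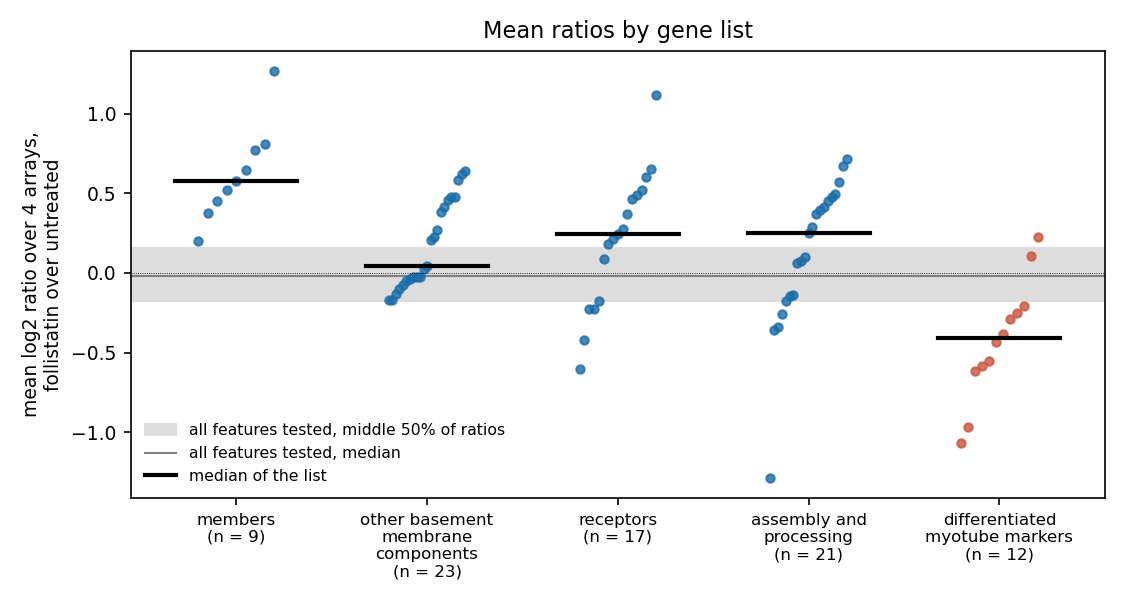
Mean log2 ratio of follistatin over untreated over the 4 arrays (y axis) for each tested gene (points) of 5 lists (x axis), with the list median as a black bar. The members' median of 0.58 lies above the grey band of the middle 50% of all features, the other components sit at 0.045, receptors and assembly genes at 0.25, and myotube markers at -0.41.

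The features with a gene symbol whose 4 ratios lay closest to the members' median profile (0.86, 0.69, 0.61 and 0.20), by Euclidean distance over the 4 arrays, were Gmfb (0.130), Lamb3 (0.177), Efhd1 (0.213), Ptcd2 (0.214) and Cltb (0.220). Each of the 5 was above 0 on all 4 arrays, highest in replicate 1 and lowest in replicate 4, which their choice by closeness to that profile favours.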

How the data were processed

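The authors read spot intensity from the scans in Agilent Feature Extraction (10.7.3.1, per the submitters' processing notes), and replicate 4 in another version per the file headers. The deposited intensity values are median spot and local background signals and processed signals, which that software background-subtracted and dye-normalized. The authors' deposited log2 table equalled the log2 of processed Cy3 over Cy5 (r = 1.00), and the deposited log10 ratio was read only for its direction.

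With limma 3.58.1 in R 4.3.3, median signals were corrected by normexp (offset 50) and normalized by loess (span 0.3, 4 iterations, control spots at weight 0). The offset compresses ratios of faint probes. Repeated spots were averaged. To be tested, a probe needed the scanner's well-above-background flag in Cy3, or in Cy5, on 3 or more of the 4 arrays, and the brightest probe stood for a gene. The ratio was tested against 0 with lmFit and eBayes, adjusted by Benjamini-Hochberg over 17863 features. Signals printed are processed signals. Whether groups overlap was read from loess and Aquantile values. Names came from the file and a RefSeq table (27479 probes by accession, 6150 by symbol, 1262 kept, 6283 unnamed), positions from the file (mm9). Named genes are the members, the 4 of smallest p in each list (of the marker lists, given only for myotubes), and the 5 nearest profiles. Some genes that this rule names, and a probe sequence, are not reported here. The members, lists and rules were chosen with earlier results of these data known. The script was tested on simulated data. The labels do not say whether replicates were separate cultures, and the 4 arrays limit the precision.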

Additional observations from a re-analysis of the deposited data

Results flagged for a closer look

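Of 34 sets of 4 ratios, 5 held an array far from the other three, and 4 of the 5 were among the 14 member probes. Chance gives about 1 in 20 for independent sets. These sets share the same arrays and some share a gene, so no excess can be read from the count. In replicate 4 the Lama4 probes A_51_P212427 (-0.036) and A_52_P7554 (-0.20) lay far below their other arrays, and so did Sdc2 (0.41). In replicate 1 the second Col4a1 probe, A_52_P518827 (1.85), and the Col4a2 probe A_51_P491350 (1.26) lay far above theirs. The cause was not tested.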

How the results depend on the processing

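Under 16 alternatives the 9 members' ratios kept their direction, and 139 of 144 values kept their side of the adjusted threshold. The other 5 came with array weights estimated from the data (0.586, 2.09, 1.64 and 0.498 for replicates 1 to 4, so the similar replicates 2 and 3 weigh most): Lama2, Lama4, Lamc1, Hspg2 and Col4a1 passed, at adjusted p from 0.0320 to 0.0431. With those weights 1792 features passed, and 2 did with the processed signals and 2 with the authors' table, against 0. Over all 16 settings the adjusted p ran from 0.0320 to 0.380 for Lama2 and from 0.335 to 0.670 for Col4a2. Features higher at an unadjusted p under 0.05 numbered 2849 with array weights, 856 with replicates 2 and 3 averaged, and 707 (without replicate 3) to 2036 when 1 array was left out, against 1509. The members at that p numbered 4 to 6 when 1 array was left out, 4 with replicates 2 and 3 averaged, and 7 with weights. The members' median stayed between 0.50 and 0.71 without any 1 array. The other components' median was 0.21 with the stricter filter, 0.13 with replicates 2 and 3 averaged, and 0.0047 to 0.20 with 1 array left out. That of assembly genes was -0.020 to 0.28. Lama4 minus Lama5 was -0.057 without replicate 2 and up to 0.19 without replicate 3. The cause of these changes was not tested. The methods' t-test, on separate channels, gave 664 features at an unadjusted p under 0.05 and at least 1.6-fold (Hspg2, Lama2 and Lamc1 among the members) and 0 after Benjamini-Hochberg. Each ratio pairs the channels of an array, so the test of the ratio was itself paired. With 1 group no further pairing was possible. Col15a1 and 2 further member probes were too faint to measure.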
